A study of Rattus norvegicus with 72 samples.

Results

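Heat shock proteins are chaperones, proteins that hold, fold or unfold other proteins, and 9 genes of the group were examined in rat dorsal root ganglia after a crush of the sciatic nerve. Each gene was read from the probe sets annotated to its symbol alone, taking its brightest one, by the mean of the 72 arrays, with any other kept as a check. By this rule 7 of the 9 genes were measured: Hspb1, Hspb8, Hspa4, Hspd1, Hsph1, Dnaja1 and Dnajb1. Hspa8 and Hsp90aa1 lie on probe sets that also carry a second symbol and are not reported. All 7 were among the 12276 genes bright enough to be tested.

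The dorsal root ganglion holds the cell bodies of sensory neurons, wrapped by satellite glia, and its L4 and L5 members send axons into the sciatic nerve. RNA came from L4 and L5 ganglia of Wistar rats aged 8 to 12 weeks, and 29 arrays are labelled distal lesion, 22 proximal lesion and 21 sham, taken at 8 times between 1 and 28 h after surgery. No allele, agent or cell sorting is given in the labels. They do not give the distance of either lesion from the ganglion, nor whether an array is 1 animal or a pool, so the spread behind each p-value is that between arrays, which may be technical. The windows compared were 18 to 28 h (12 distal, 9 proximal and 9 sham arrays), 12 to 16 h (5, 4 and 3 arrays) and 1 to 8 h (12, 9 and 9 arrays). Values are log2 intensities, and a difference of 1 on this scale is a doubling.

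Small heat shock proteins such as Hspb1 (Hsp27) and Hspb8 (Hsp22) bind unfolding proteins without using ATP. Hsp70 chaperones fold proteins in cycles of ATP use, driven by J-domain partners such as Dnaja1 and Dnajb1 (Hsp40 proteins) and reset by the exchange factors Hspa4 and Hsph1 of the Hsp110 family. Hspd1 (Hsp60) is the folding chamber of mitochondria. In heat-stressed cells the transcription factor Hsf1 binds repeats of the letters GAA and TTC in the promoters of many of these genes. Hspb1 is known in injured sensory and motor neurons, where it has been tied to survival and axon growth, and mutations of human HSPB1 and HSPB8 cause inherited motor neuropathies.

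The heat shock element was looked for in the RefSeq promoters of the assembly GRCr8, 300 bases from 250 before to 50 after the transcript start, which matched all 7 genes. The 3-unit letters GAANNTTCNNGAA, or TTCNNGAANNTTC on the other strand, stood in 3 of 7 genes, Hspd1, Hsph1 and Dnaja1, against 0.798% of 33469 promoters. The 2-unit letters GAANNTTC or TTCNNGAA, each its own other strand, stood in 6 of 7, all but Hspa4, against 15.9% of promoters. The 2-unit letters overlap the 3-unit ones, and a match is a description of the letters, not of binding. Of 60 promoters of other listed chaperone genes, 4 held the 3-unit letters and 15 the 2-unit letters. The promoters of the 5 genes called after the distal lesion, 2 of them also after the proximal lesion, are printed with the matched letters in capitals. In Hspb1 and Hspb8 the matches are 2-unit letters, at positions -129 and -109 from the start in Hspb1 and -23 in Hspb8. In Hspd1, Hsph1 and Dnaja1 they include the 3-unit letters.
Hspb1 (chr12:26432252-26432551, minus strand): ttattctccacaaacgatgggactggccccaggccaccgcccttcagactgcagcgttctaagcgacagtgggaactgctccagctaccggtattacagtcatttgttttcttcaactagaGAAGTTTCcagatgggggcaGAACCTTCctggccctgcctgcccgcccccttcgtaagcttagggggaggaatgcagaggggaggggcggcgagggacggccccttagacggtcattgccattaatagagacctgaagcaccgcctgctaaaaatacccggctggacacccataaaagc
Hspb8 (chr12:45837058-45837357, plus strand): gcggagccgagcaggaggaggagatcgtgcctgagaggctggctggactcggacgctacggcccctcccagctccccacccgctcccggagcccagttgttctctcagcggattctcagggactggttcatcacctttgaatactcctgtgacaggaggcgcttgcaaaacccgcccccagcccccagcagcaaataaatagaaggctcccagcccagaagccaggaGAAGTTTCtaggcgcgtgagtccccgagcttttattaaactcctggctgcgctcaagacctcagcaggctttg
Hspd1 (chr9:64083988-64084287, minus strand): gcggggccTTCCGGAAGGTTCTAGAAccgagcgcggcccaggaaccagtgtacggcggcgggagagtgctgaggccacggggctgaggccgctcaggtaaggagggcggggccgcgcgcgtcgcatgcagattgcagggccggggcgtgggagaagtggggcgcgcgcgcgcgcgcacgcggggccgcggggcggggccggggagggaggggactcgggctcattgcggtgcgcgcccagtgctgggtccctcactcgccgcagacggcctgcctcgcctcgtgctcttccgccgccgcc
Hsph1 (chr12:10427118-10427417, plus strand): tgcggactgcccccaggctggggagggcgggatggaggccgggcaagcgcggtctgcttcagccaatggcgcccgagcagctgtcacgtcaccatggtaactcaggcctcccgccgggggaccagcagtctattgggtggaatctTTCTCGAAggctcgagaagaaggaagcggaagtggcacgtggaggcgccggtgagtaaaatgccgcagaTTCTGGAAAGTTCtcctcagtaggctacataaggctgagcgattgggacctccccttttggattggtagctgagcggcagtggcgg
Dnaja1 (chr5:60638154-60638453, plus strand): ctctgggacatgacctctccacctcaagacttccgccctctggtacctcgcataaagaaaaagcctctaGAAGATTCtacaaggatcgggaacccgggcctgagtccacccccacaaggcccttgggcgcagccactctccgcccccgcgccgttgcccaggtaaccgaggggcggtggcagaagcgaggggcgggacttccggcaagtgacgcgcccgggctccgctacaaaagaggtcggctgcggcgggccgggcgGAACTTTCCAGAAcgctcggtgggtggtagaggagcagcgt

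The 72 arrays carry a structure, called technical here, that bears on every comparison. The values of probe sets too dim to be tested were used to cluster the 72 arrays into 4 sets, A to D. The number of sets was fixed by hand, and the sample labels name no batch. Of the 29 distal arrays 27 made up set A by themselves. Proximal and sham lay in the same sets at each hour except 16 h, where sham has 1 array. Set C held the 18 proximal and sham arrays of 1, 24 and 28 h, and set D those of 3 and 8 h with parts of 12, 16 and 18 h. Of the variance over all arrays, technical set took a share of 0.645 in Hspb1, 0.557 in Hspb8, 0.637 in Dnajb1, 0.544 in Hsph1, 0.365 in Dnaja1, 0.212 in Hspa4 and 0.199 in Hspd1. The 24 groups of lesion and hour took 0.815, 0.876, 0.633, 0.43, 0.643, 0.454 and 0.631 in the same order. The sets largely follow lesion and hour, so these shares overlap and that of set is not technical alone. Against the labelled tissue, all 15 sensory neuron markers passed the filter, with summed intensities of 100900 to 137600 over the 72 arrays.

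**Figure D1:**
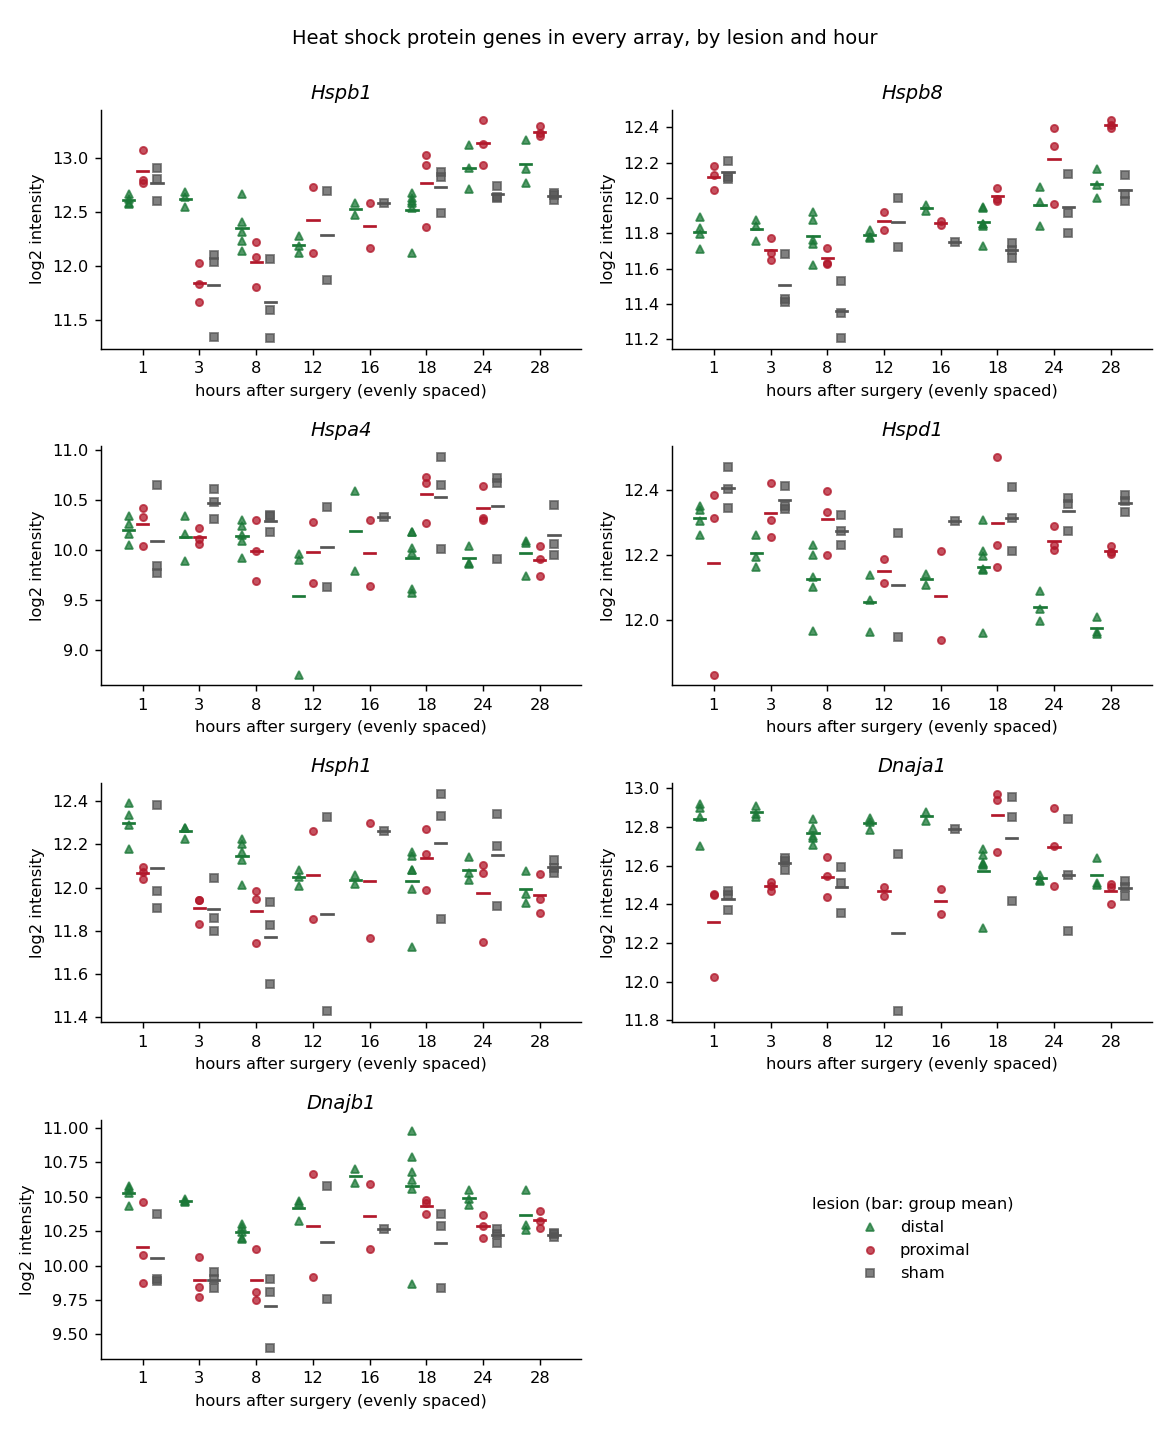
Log2 intensity of each heat shock protein gene (y axis) by hour (x axis, evenly spaced) in all 72 arrays, distal left (triangles), proximal in the middle (circles) and sham right (squares), with a bar at each group mean. Hspb1 and Hspb8 have low proximal and sham means at 3 and 8 h and their highest mean in proximal arrays at 28 h, and Dnaja1 in distal arrays stands at 12.70 or more until 16 h and at 12.69 or less from 18 h.

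The small heat shock protein genes were the members that rose after the proximal lesion. Late, at 18 to 28 h, Hspb1 rose 1.29-fold and Hspb8 1.24-fold against sham of the same hours. The other 5 members, which serve the Hsp70 cycle and the mitochondrion, did not pass the test. That made 2 of 7 members higher and 0 lower, where 9.71% of all genes were called, 5.35% higher and 4.36% lower. The median difference of the 7 members was 0.08, against -0.02 over all genes tested.

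Hspb1 had 13.03, 12.94 and 12.36 in proximal arrays a, b and c at 18 h, 13.13, 13.35 and 12.94 at 24 h, and 13.21, 13.23 and 13.30 at 28 h. Sham arrays had 12.87, 12.83 and 12.49 at 18 h, 12.63, 12.64 and 12.74 at 24 h, and 12.68, 12.61 and 12.66 at 28 h. Thus 8 of 9 proximal arrays lay above every sham array, and the remaining one, 18 h c, lay below all of them. The share of all genes with such a split was not counted. The mean was 13.05 ± 0.30 after the proximal lesion and 12.68 ± 0.12 after sham (SD, n = 9 each), a difference of 0.37 (SE 0.10, 95% interval 0.16 to 0.58, limma adjusted p = 0.0132). Without the 18 h arrays it was 0.53. The difference lay at 24 and 28 h, with 0.47 and 0.59, rather than at 18 h, with 0.04 (SE 0.18 at each hour), and 28 h alone was called (1.51-fold, adjusted p = 0.0431, where 4.47% of genes were called). At 18 h it was 0.13 between the proximal and sham arrays of set B (2 each) and -0.13 between those of set D (1 each), while all arrays of 24 and 28 h were in set C.

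Hspb8 had 12.06, 11.99 and 11.98 in proximal arrays at 18 h, 12.30, 12.40 and 11.96 at 24 h, and 12.41, 12.44 and 12.39 at 28 h. Sham arrays had 11.71, 11.66 and 11.75 at 18 h, 12.14, 11.91 and 11.80 at 24 h, and 12.02, 12.13 and 11.98 at 28 h. The groups did not overlap at 18 h or 28 h and overlapped at 24 h, where proximal c lay among the sham arrays. How many genes split like this between so few arrays was not counted. The mean was 12.21 ± 0.21 after the proximal lesion and 11.90 ± 0.18 after sham (SD, n = 9 each), a difference of 0.31 (SE 0.05, 95% interval 0.21 to 0.42, adjusted p = 6.29e-06). It was of like size at each late hour, 0.31, 0.27 and 0.37 (SE 0.09 each). Only 28 h was called (adjusted p = 0.00459), and 18 h came to an adjusted p of 0.0582. Within sets the 18 h difference was 0.34 in set B and 0.24 in set D. A dimmer Hspb8 probe set gave 0.33 with an SE of 0.14 and was not called (adjusted p = 0.168).

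**Figure D2:**
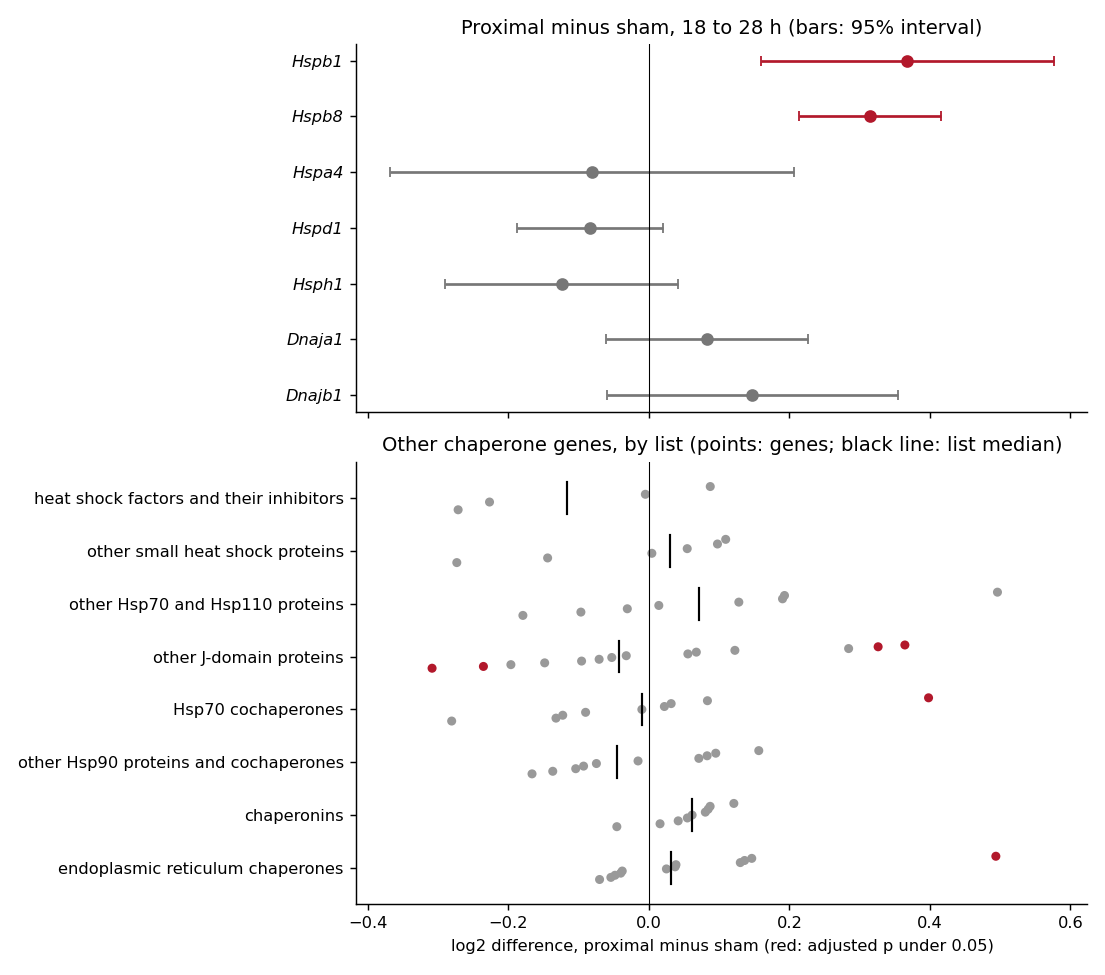
Log2 difference, proximal minus sham, over 18 to 28 h (x axis) for the 7 heat shock protein genes with 95% intervals (upper panel) and for 72 other chaperone genes by list (lower panel, points are genes and black lines list medians). Red marks an adjusted p under 0.05: Hspb1 at 0.37 and Hspb8 at 0.31 stand right of 0, and 6 of the 72 other genes are called.

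The Hsp110 exchange factors did not differ detectably between proximal and sham late. Hspa4 averaged 10.29 ± 0.35 in proximal and 10.38 ± 0.39 in sham arrays, a difference of -0.08 (95% interval -0.37 to 0.21, adjusted p = 0.855). Hsph1 averaged 12.03 ± 0.15 in proximal and 12.15 ± 0.20 in sham arrays, a difference of -0.12 (-0.29 to 0.04, adjusted p = 0.44). For the J-domain partners, Dnaja1 differed by 0.08 (-0.06 to 0.23, adjusted p = 0.608) and Dnajb1 by 0.15 (-0.06 to 0.35, adjusted p = 0.48). Hspd1 differed by -0.08 (-0.19 to 0.02, adjusted p = 0.394). The interval of Hspd1 leaves little room, under 0.2 in either direction, while that of Hspa4 is the widest of the 7.

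Before 18 h no member passed the test after the proximal lesion. At 1 to 8 h 0 of 7 were called by limma (0.13% of all genes) and 1, Hspb8, had an unadjusted p under 0.05. Hspb1 differed by 0.16 (SE 0.10, adjusted p = 0.605) and Hspb8 by 0.16 (SE 0.05, unadjusted p = 0.00327, adjusted p = 0.153). At 12 to 16 h, with 4 proximal and 3 sham arrays, 0 of 7 were called by limma (0.114% of all genes), also at an unadjusted p under 0.05, and Hspb1 differed by -0.04 (SE 0.18) and Hspb8 by 0.06 (SE 0.08). The dimmer probe sets departed further from 0 in this window, though none was called. They gave 0.65 for Hspb8 (SE 0.23, adjusted p = 0.25) and 0.55 for Hsph1 (SE 0.28, adjusted p = 0.38). For Dnajb1 the value was 0.54 (SE 0.16, adjusted p = 0.143) and for Dnaja1 -0.19 (SE 0.09, adjusted p = 0.363). Hspb8 reached 0.30 at 8 h (SE 0.09, adjusted p = 0.0633), where proximal arrays had 11.72, 11.64 and 11.63 and sham arrays 11.21, 11.35 and 11.53. All 3 proximal arrays were above all 3 sham arrays there, a split that was not counted over all genes. Hspb1 at 8 h differed by 0.37 (SE 0.18, adjusted p = 0.366), and its arrays overlapped, with 12.23, 11.81 and 12.09 against 11.34, 12.07 and 11.59 in sham.

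**Figure D3:**
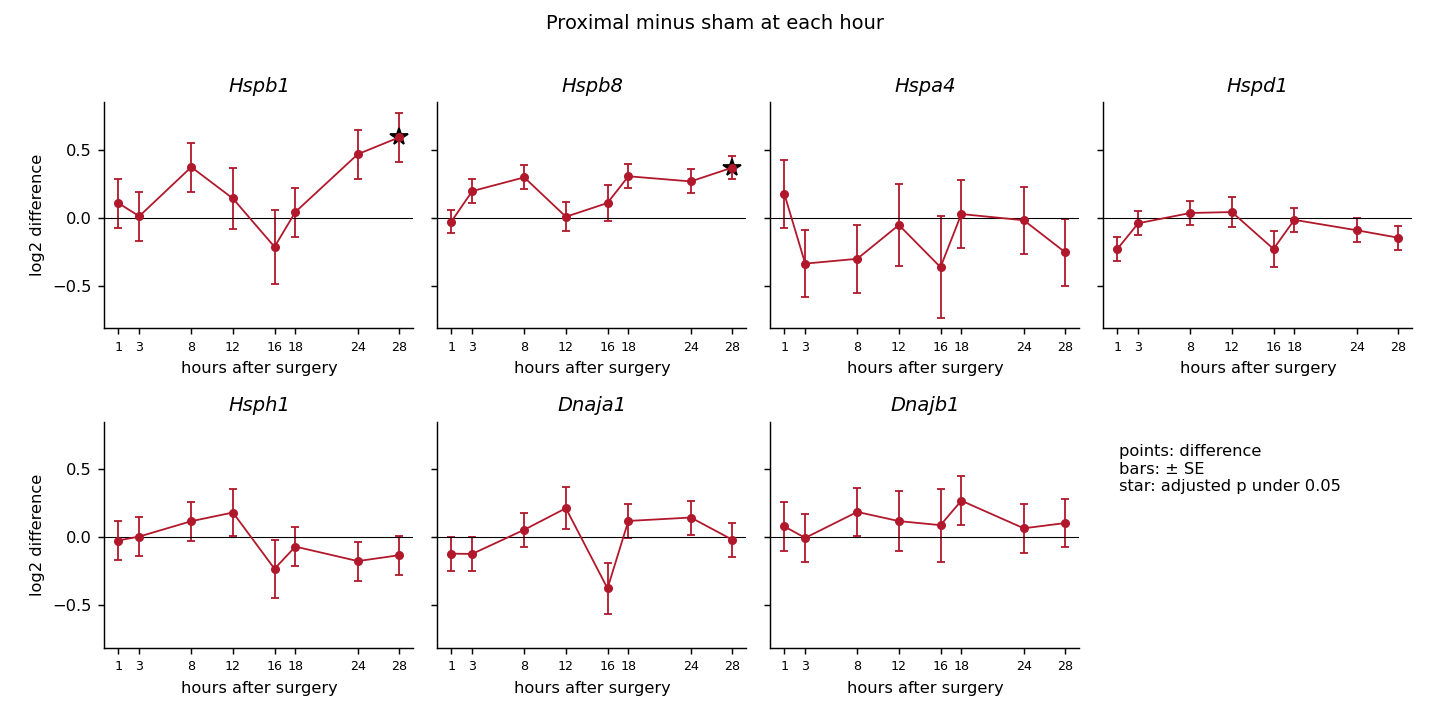
Log2 difference, proximal minus sham (y axis), at each of the 8 hours (x axis, to scale) for each heat shock protein gene, with bars of 1 standard error and a star where the adjusted p is under 0.05. Stars stand only at 28 h, for Hspb1 (0.59) and Hspb8 (0.37), and Hspb8 lies near 0.3 at 8, 18 and 24 h.

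Markers of other cells were read beside this comparison. Of 12 macrophage markers 8 were higher and 0 lower, and their summed intensity was 5940 to 14550 in proximal and 4665 to 8170 in sham arrays. Satellite glia markers had 1 of 6 higher, sensory neuron markers 0 of 15 higher and 3 lower, and Schwann cell markers 0 of 7 called. Muscle is rich in Hspb1 and Hspb8, and skeletal muscle markers had 0 of 12 called with sums of 4836 to 8199 in proximal and 5332 to 18370 in sham arrays. Pvalb and Myh1, with means of 11.72 and 10.83 in these proximal arrays, are the brightest of the 12 and weigh most in the proximal sums. In the sham arrays their means were 11.75 and 10.80. The sums thus say little of the dimmer muscle markers. Smooth muscle markers had 0 of 7 called. The part of the macrophage markers in the 2 differences was not tested, and in bulk tissue more cells of a type and more RNA per cell cannot be told apart.

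Beyond the members, 72 other chaperone genes were tested in the same comparison. Of these 4 were higher, 2 lower and 66 not called, with a median of 0.02, where 9.71% of all genes were called. The higher ones were the J-domain genes Dnajb5 (0.36, adjusted p = 0.00067) and Dnajc7 (0.33, adjusted p = 0.0319), Bag2, a partner of Hsp70 (0.40, adjusted p = 0.0092), and Dnajb9, a J-domain protein of the endoplasmic reticulum (0.49, adjusted p = 0.00427). The lower ones were the J-domain genes Dnajb2 (-0.24, adjusted p = 0.0474) and Dnajb4 (-0.31, adjusted p = 0.043). The other small heat shock protein genes had 0 of 6 called, the other Hsp70 and Hsp110 genes 0 of 8, the Hsp90 genes and their partners 0 of 10 and the chaperonins 0 of 9. Heat shock factors and their inhibitors had 0 of 4 called, with Hsf1 at 8.24 in proximal and 8.51 in sham arrays (difference -0.27, SE 0.11, adjusted p = 0.107). Cryab, the small heat shock protein alpha-B crystallin, differed by 0.10 (SE 0.08, adjusted p = 0.6), and the stress-induced Hsp70 gene Hspa1a by 0.01 (SE 0.13, adjusted p = 0.977).

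After the distal lesion the comparison least touched by technical set is that of late with early arrays, since all but 2 of these arrays are in set A. Late, Hspb1 and Hspb8 were higher than early, and Hspd1, Hsph1 and Dnaja1 were lower. So 5 of 7 members were called, 2 higher and 3 lower, where 25.3% of all genes were called, 15.4% higher and 9.87% lower. The largest of these changes was the fall of Dnaja1, 1.21-fold. There is no sham array in set A, so time under sham cannot be taken off within the set.

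Dnaja1 had a lowest value of 12.28, a median of 12.58 and a highest of 12.69 in the 12 distal arrays of 18 to 28 h, against 12.70, 12.84 and 12.92 in the 17 distal arrays of 1 to 16 h. The groups did not overlap, a split seen after the values were known that 0.0896% of genes share in that direction. Group means were 12.84, 12.88, 12.77, 12.82 and 12.86 at 1, 3, 8, 12 and 16 h, then 12.57, 12.53 and 12.55 at 18, 24 and 28 h. In this brightest probe set every mean up to 16 h thus lay above every mean from 18 h on. A step between 16 and 18 h was not tested. Between the late and early windows Dnaja1 fell by 0.28 (log2, SE 0.06, adjusted p = 0.000874), with all 12 late arrays below all 12 early ones, as in 0.391% of genes. Its other probe set also fell, by 0.14 (adjusted p = 0.0284). No single hour against 1 h was called, and the lowest adjusted p was 0.0817, at 24 h.

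Hspd1, the mitochondrial chaperonin, fell by 0.15 (SE 0.05, adjusted p = 0.0101), to 12.09 ± 0.12 late against 12.21 ± 0.11 early (SD, n = 12 each). Its distal means were 12.31, 12.21, 12.13, 12.06, 12.13, 12.17, 12.04 and 11.98 from 1 to 28 h. The arrays of 24 h had 12.09, 12.03 and 12.00 and those of 28 h 11.96, 12.01 and 11.96, all below the 4 arrays of 1 h at 12.35, 12.34, 12.30 and 12.26. The share of all genes with that split was not counted. Against 1 h it was called at 24 h (-0.27, adjusted p = 0.0255, where 10.5% of genes were called) and 28 h (-0.34, adjusted p = 0.00497, 10.1% of genes).

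Hsph1 fell by 0.20 (SE 0.07, adjusted p = 0.0402), to 12.04 ± 0.12 late against 12.23 ± 0.10 early. Its distal means were 12.30 and 12.26 at 1 and 3 h and lay between 11.99 and 12.15 from 8 h on, so most of the fall was over by 12 h. The call is narrow: it was lost without any one of 12 of the 24 arrays (1 h a or c, 3 h a, b or c, 8 h do or eo, 18 h do, 24 h a or b, 28 h a or c), with adjusted p up to 0.0745. The dimmer Hsph1 probe set fell by 0.54 (SE 0.15, adjusted p = 0.0045). Its partner Hspa4 differed by -0.22 (95% interval -0.48 to 0.04, adjusted p = 0.222), and 1 distal array of 12 h stood at 8.76 while the other arrays of 12 h were at 9.97 and 9.90.

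Hspb8 rose by 0.16 (SE 0.05, adjusted p = 0.0057), to 11.94 ± 0.12 late against 11.80 ± 0.09 early (SD, n = 12 each). Against 1 h it was called at 28 h (0.27, adjusted p = 0.024), where arrays had 12.00, 12.17 and 12.07 against 11.71, 11.83, 11.80 and 11.90 at 1 h. Here its dimmer probe set went the other way (-0.22, SE 0.12, adjusted p = 0.186). Hspb1 rose by 0.26 (SE 0.09, adjusted p = 0.0311), to 12.73 ± 0.28 late against 12.51 ± 0.19 early. The call was lost without 3 h c, 8 h b, 24 h a or 28 h b (adjusted p 0.0596, 0.0501, 0.0867 and 0.0904).

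Hspb1 did not climb steadily after the distal lesion. Its means were 12.62 and 12.63 at 1 and 3 h, 12.35 and 12.20 at 8 and 12 h, 12.53 and 12.52 at 16 and 18 h, and 12.91 and 12.95 at 24 and 28 h. Against 1 h none was called, from -0.42 at 12 h (SE 0.17, adjusted p = 0.265) to 0.33 at 28 h (SE 0.17, adjusted p = 0.235). Dnajb1 was not called late against early (0.07, adjusted p = 0.654), and its dimmer probe set fell by 0.24 (adjusted p = 0.024), so its 2 probe sets disagreed. Over these arrays smooth muscle markers had 5 of 7 genes higher, with sums of 1771 to 2326 late against 1445 to 2205 early, and satellite glia markers had 3 of 6 higher, with sums of 16130 to 23690 late against 16430 to 21060 early. Sensory neuron markers had 5 of 15 lower and 0 higher, with sums of 115800 to 127900 late against 122700 to 133700 early. Of the macrophage markers 6 of 12 were higher and 2 lower (5401 to 9240 late, 5670 to 9148 early), of the fibroblast markers 4 of 7 lower (13150 to 27380 late, 20580 to 27900 early) and of the erythrocyte markers 2 of 3 lower (2076 to 5422 late, 1710 to 8492 early). Schwann cell markers had 2 of 7 higher and 1 lower, endothelial markers 1 of 7 higher, and skeletal muscle markers 0 of 12 called with a median of 0.87. The part of these markers in the members' changes was not tested.

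**Figure D4:**
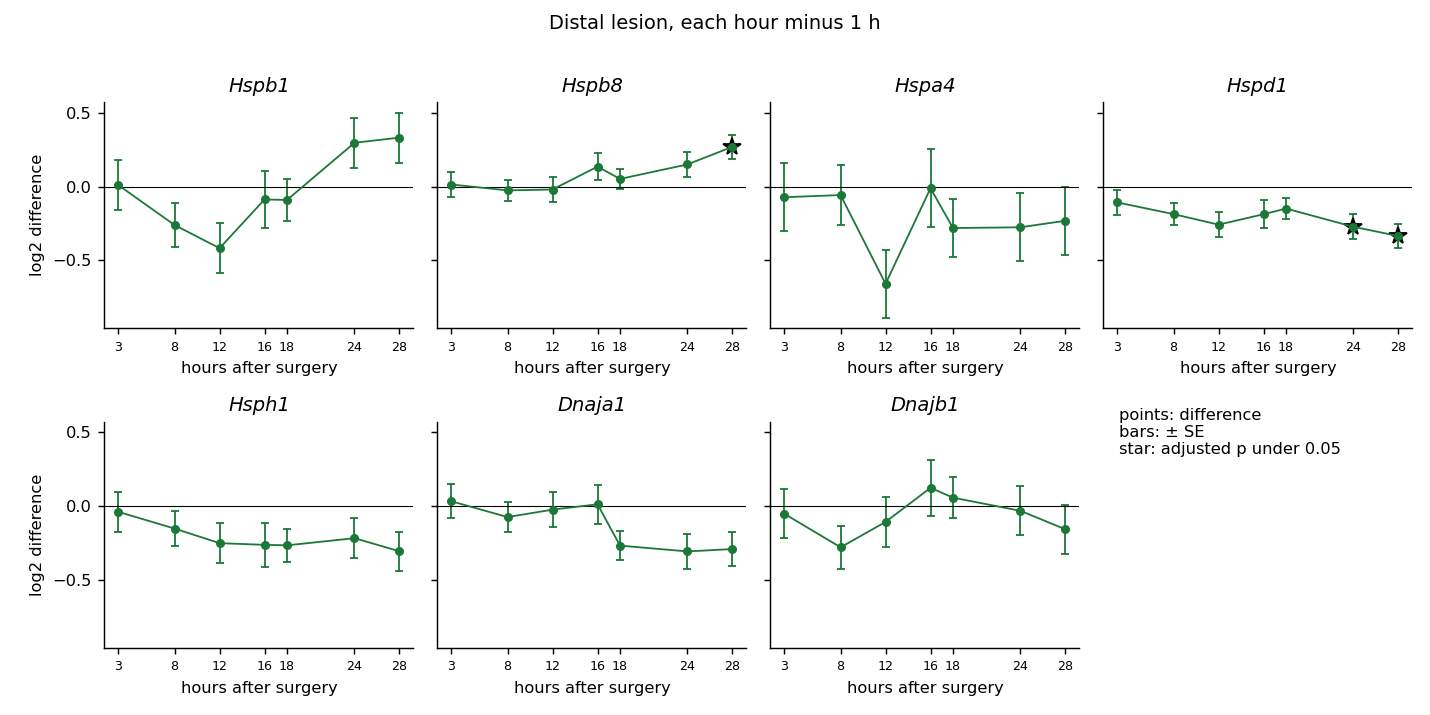
Log2 difference of each hour from 1 h after the distal lesion (y axis) against the hour (x axis, to scale), with bars of 1 standard error and a star where the adjusted p is under 0.05. Hspd1 is starred at 24 h (-0.27) and 28 h (-0.34) and Hspb8 at 28 h (0.27), and Dnaja1 lies near 0 to 16 h and between -0.27 and -0.31 from 18 h.

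Among the 72 other chaperone genes, 4 were higher and 6 lower late than early after the distal lesion. Of all genes 25.3% were called there, 15.4% higher and 9.87% lower. Hspa2, an Hsp70 gene, rose by 1.03 (SE 0.15), Bag2 by 0.35, Hspb6, a small heat shock protein gene of muscle, by 0.33 and Dnajb5 by 0.20. Fkbp5, an Hsp90 partner that glucocorticoids induce, fell by 1.21 (SE 0.19), Bag3, the partner of Hspb8 in clearing misfolded proteins, by 0.50, and Dnajb4 by 0.39. Pdia3, a protein disulphide isomerase, fell by 0.34, the Hsp90 partner Fkbp4 by 0.31 and Dnaja4 by 0.16. The adjusted p of these 10 ran from 4.71e-07 to 0.0453.

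Hspa4 had distal means of 10.20, 10.13, 10.14, 9.54, 10.19, 9.92, 9.93 and 9.97 from 1 to 28 h. Dnajb1 had 10.52, 10.47, 10.24, 10.42, 10.65, 10.58, 10.49 and 10.37. Hsph1 had 12.30, 12.26, 12.15, 12.05, 12.04, 12.03, 12.08 and 11.99. The low Hspa4 mean at 12 h rests on 1 array, and the lowest Dnajb1 mean was that of 8 h. Hspb8 had 11.81, 11.83, 11.79, 11.79, 11.95, 11.86, 11.96 and 12.08, with its highest mean at the last hour.

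In proximal and sham arrays the means of both small heat shock protein genes were lower at 3 and 8 h than at 1 h. From 18 to 28 h the Hspb1 means were successively higher in proximal and slightly lower in sham arrays. The Hspb8 means rose over these hours in both, and the sham Hspb8 mean of 18 h was still under that of 12 h. These arrays of 18 h lie in sets B and D and those of 24 and 28 h in set C. Hspb1 had proximal means of 12.88, 11.84, 12.04, 12.43, 12.38, 12.77, 13.14 and 13.24 from 1 to 28 h, and sham means of 12.77, 11.83, 11.67, 12.29, 12.59, 12.73, 12.67 and 12.65. Hspb8 had proximal means of 12.12, 11.71, 11.66, 11.87, 11.86, 12.01, 12.22 and 12.42, and sham means of 12.15, 11.51, 11.36, 11.86, 11.75, 11.71, 11.95 and 12.05. The hours 3 and 8 are those of set D, whose mean over all its arrays was 11.96 in Hspb1 and 11.65 in Hspb8, against 12.89 and 12.15 in set C.

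The mitochondrial chaperonin was steadier. Hspd1 had proximal means of 12.18, 12.33, 12.31, 12.15, 12.08, 12.30, 12.24 and 12.21 from 1 to 28 h, and sham means of 12.41, 12.37, 12.27, 12.11, 12.30, 12.31, 12.33 and 12.36. The proximal mean at 1 h holds 1 array at 11.83, the lowest of all 72. Hspa4 had proximal means of 10.26, 10.13, 9.99, 9.98, 9.97, 10.56, 10.42 and 9.90, and sham means of 10.09, 10.47, 10.29, 10.03, 10.33, 10.53, 10.44 and 10.15. Hsph1 had proximal means of 12.07, 11.91, 11.89, 12.06, 12.03, 12.14, 11.97 and 11.96, and sham means of 12.09, 11.90, 11.77, 11.88, 12.26, 12.21, 12.15 and 12.09. In both exchange factor genes the highest proximal mean was that of 18 h.

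Among the J-domain genes, Dnaja1 had proximal means of 12.31, 12.49, 12.54, 12.47, 12.41, 12.86, 12.70 and 12.47, and sham means of 12.43, 12.62, 12.49, 12.25, 12.79, 12.74, 12.55 and 12.48. Dnajb1 had proximal means of 10.14, 9.89, 9.89, 10.29, 10.36, 10.44, 10.29 and 10.33, and sham means of 10.06, 9.90, 9.71, 10.17, 10.27, 10.17, 10.22 and 10.22. Dnaja1 was highest at 18 h after the proximal lesion and highest at 3 h after the distal lesion.

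Late and early values of proximal and sham arrays differ in technical set as well as in time. After the proximal lesion 4 of 7 members were higher late than early (33.6% of genes called, 26.3% higher): Hspb1 by 0.80, Hspb8 by 0.39, Dnajb1 by 0.38 and Dnaja1 by 0.23. After sham 4 of 7 were higher (40.3% of genes, 35.4% higher): Hspb1 by 0.59, Dnajb1 by 0.32, Hspb8 by 0.23 and Hsph1 by 0.23, where the median of all genes was 0.15. In sham the dimmer probe sets of Dnajb1, Hspb8 and Hsph1 were not called, with Dnajb1 at 0.04 (adjusted p = 0.779), Hspb8 at 0.30 (adjusted p = 0.0815) and Hsph1 at 0.36 (adjusted p = 0.0813). After the proximal lesion the dimmer Dnajb1 probe set was not called either (0.14, adjusted p = 0.249). The Hsph1 call was also lost without sham 1 h c, 8 h a, 18 h a or b, or 24 h b. Over all sham hours a moderated F test called Hspb1 (adjusted p = 4.46e-07), Hspb8 (adjusted p = 1.44e-09) and Dnaja1 (adjusted p = 0.0445), where 53.6% of genes were called. The lowest group means of Hspb1 and Hspb8 were those of sham at 8 h, 11.67 and 11.36, and the highest those of proximal at 28 h, 13.24 and 12.42.

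The test of the difference between the proximal and the sham change from early to late called 0 of 7 members by limma (8.67% of genes), and 1, Hspb8, had an unadjusted p under 0.05. It was 0.20 larger after the proximal lesion in Hspb1 (SE 0.15, unadjusted p = 0.173, adjusted p = 0.471) and 0.16 larger in Hspb8 (SE 0.07, unadjusted p = 0.0311, adjusted p = 0.172). The proximal and sham arrays of 1, 24 and 28 h all lie in set C, so 24 and 28 h against 1 h, a comparison added after the values were seen, stays within 1 set. In that set 0 of 7 members were called by limma after the proximal lesion (20.3% of genes) or after sham (1.88% of genes), and at an unadjusted p under 0.05 these were 2 and 0. Hspb1 differed by 0.31 after the proximal lesion (adjusted p = 0.157) and by -0.11 after sham (adjusted p = 0.855). Hspb8 differed by 0.20 (adjusted p = 0.0549) and -0.15 (adjusted p = 0.433). The difference of the 2 changes was 0.42 in Hspb1 (SE 0.22, adjusted p = 0.566) and 0.35 in Hspb8 (SE 0.11, adjusted p = 0.116), and neither was called (1.21% of genes).

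Distal arrays set against sham or proximal arrays compare technical set A with the others, and lesion and set cannot be told apart. Against sham, 3 of 7 members were called late (61.8% of genes) and 6 of 7 early (68.7% of genes, with a median of all genes of 0.19). Late, Hspa4 differed by -0.44, Hspd1 by -0.27 and Dnajb1 by 0.28, and Dnajb1 lost its call without sham 18 h c. Early, Dnajb1 differed by 0.53, Hspb1 by 0.44, Dnaja1 by 0.32, Hsph1 by 0.31, Hspb8 by 0.13 and Hspd1 by -0.13. The dimmer Dnajb1 probe set was called in neither window, with -0.09 late (adjusted p = 0.399) and 0.19 early (adjusted p = 0.0511). The early value of the dimmer probe set was 0.13 for Dnaja1, 0.64 for Hsph1 and 0.30 for Hspb8, all called. With technical set as a random block 0 of 7 were called in either window. Distal minus proximal called 4 of 7 members late (53.4% of genes) and 4 of 7 early (65.1% of genes). The change from early to late was lower after the distal lesion than after sham in 2 of 7 members, Hsph1 and Dnaja1, and higher in 0 (30% of genes called, 22.7% lower). By its dimmer probe set Hspb8 was also called lower there (-0.52, adjusted p = 0.0277).

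Likeness between members was described over the 43 proximal and sham arrays, after the mean of each hour was taken off. These arrays share technical sets, so the values are a description. The lesion was not taken off, so each r also holds the difference between proximal and sham arrays. Hspa4 and Hsph1, both of the Hsp110 family, had a Pearson r of 0.756, Hsph1 and Dnajb1 0.673, Hsph1 and Dnaja1 0.616, and Hspb1 and Hspb8 0.576. Hspb8 had almost no relation to Hspa4 (-0.07) or Hsph1 (0.11). The genes most like Hspb1 were Panx1 (0.861), Dgcr6 (0.860) and Ppp1r14b (0.855), and those most like Hspb8 were Zfand2a (0.786), Tceal9 (0.778) and the chemokine gene Ccl2 (0.768). Hspa4 was most like Cse1l (0.854), Blm (0.846) and Nup205 (0.834), and Hsph1 like Dnajc13 (0.904), Kiaa0232 (0.883) and Nup107 (0.875). Dnaja1 was most like Caprin1 (0.925), Capza2 (0.912) and Usp15 (0.909), and Dnajb1 like Ccdc28a (0.862), Zfyve21 (0.858) and Ndel1 (0.839). Hspd1 was most like Eps15 (0.796), Atp6v1a (0.778) and Rimoc1 (0.769). The injury-induced transcription factor gene Atf3 had an r of 0.698 with Hspb8, 0.564 with Hspb1, 0.437 with Dnajb1, 0.196 with Dnaja1, 0.02 with Hsph1, -0.02 with Hspa4 and -0.18 with Hspd1. The summed skeletal muscle markers had an r of -0.02 with Hspb1 and -0.11 with Hspb8. That sum adds unlogged intensities and leans on its brightest genes, Pvalb and Myh1, so it says little of the dimmer muscle markers.

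Over the whole experiment group means on the log2 scale spanned 1.58 in Hspb1, 1.05 in Hspb8, 1.02 in Hspa4, 0.94 in Dnajb1, 0.62 in Dnaja1, 0.53 in Hsph1 and 0.43 in Hspd1. When the 24 group means of a gene were put in order, neighbours differed by more than the pooled SD in 3 of 23 pairs for Hspb8 and 1 of 23 for Hspa4, and in none for the other 5 genes. For Hspb8 the widest of these gaps, 0.20, separated proximal 28 h from proximal 24 h, the next in order.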

How the data were processed

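The authors deposited 1 log2 intensity for each probe set and array. RMA, which corrects background, equalizes distributions and summarizes probes, is named in the submitters' processing notes. Its version and whether all arrays were normalized together are not given in the sources used here. Of 31099 probe sets, 57 controls were left out, and 20826 carry 1 gene symbol in the platform annotation. Each gene was read from its brightest probe set, and those with a mean below the 25th percentile (5.46) were left out.

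Differences were tested with limma 3.58.1 in R 4.3.3: 1 mean per lesion and hour (24 groups, 72 arrays, 48 residual degrees of freedom), empirical Bayes with a trend, two-sided, Benjamini-Hochberg over 12276 genes, called at an adjusted p under 0.05. A window averages its hours equally, so its difference can depart slightly from that of the printed means. Technical sets came from Ward clustering of the arrays by the probe sets below the filter, cut at a number of sets fixed by hand.

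The members, lists, comparisons and rules were chosen with earlier results of these data known. The rule named every measured member, at most 4 called genes of each other chaperone list, and the 3 genes most like each member. Cryab, Hspa1a, Hsf1 and Atf3 were chosen after their values were seen. In data simulated for the late proximal comparison with 12276 genes, 23.9% of changes of 0.3, 82.1% of 0.6 and 100% of 1 were recovered, and 5.52% of calls were false. The simulated noise was independent between genes and between arrays and held no technical sets, so these rates need not hold for the real arrays. Alternatives were other filters, normalization, weights, blocks, probe sets and array subsets. The number of arrays limits the precision.

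Array letters recur between lesions. Deviations of same-letter proximal and sham arrays correlated above 0.1 in all 3 pairs at 2 of 6 hours, so the letters were not taken as pairs.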

Additional observations from a re-analysis of the deposited data

Results flagged for a closer look

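Array do of the distal 18 h group stood apart from the other 5 in 2 genes. Hspb1 was at 12.12 there, while the others lay between 12.54 and 12.68, and Dnaja1 at 12.28, while the others lay between 12.61 and 12.69. It is the distal array in technical set D. Of 21 combinations of gene and group with 4 to 10 arrays looked at, chance flags about 1 in 20. Both flags are of the same array, so they are not independent.

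The lesion sites differed by the test of the difference itself in 8 cases, each confounded with technical set A. Late, distal minus proximal was -0.257 in Hspb1 (adjusted p = 0.027), -0.247 in Hspb8 (adjusted p = 4.07e-05), -0.355 in Hspa4 (adjusted p = 0.0267) and -0.19 in Hspd1 (adjusted p = 0.00132), in a comparison that called 53.4% of genes. Early it was 0.277 in Hspb1 (adjusted p = 0.0123), 0.28 in Hsph1 (adjusted p = 0.00162), 0.381 in Dnaja1 (adjusted p = 4.18e-06) and 0.439 in Dnajb1 (adjusted p = 0.000119), where 65.1% of genes were called. The dimmer probe sets gave 0.0998 for Dnajb1, not called (adjusted p = 0.327), 0.186 for Dnaja1 and 0.484 for Hsph1 early, and -0.541 for Hspb8 late. Early, all 12 distal arrays of Dnaja1 and 11 of 12 of Hsph1 lay above all 9 proximal arrays. The share of all genes split in this way was not counted. The late call of Hspb1 was lost without distal 24 h b, distal 28 h a, proximal 18 h a or b, or proximal 24 h b, and that of Hspa4 without distal 28 h c, proximal 18 h b, proximal 24 h a or proximal 28 h c.

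The change from early to late was lower after the distal lesion than after sham in 2 genes, distal change minus sham change being -0.428 in Hsph1 (SE 0.11, adjusted p = 0.0026) and -0.358 in Dnaja1 (SE 0.10, adjusted p = 0.00379), where 30% of genes were called. The dimmer Dnaja1 probe set gave -0.179 and was not called (adjusted p = 0.0579), and that of Hsph1 gave -0.907. The dimmer Hspb8 probe set was called lower (-0.52, SE 0.185, adjusted p = 0.0277), while the one used gave -0.07. That of Dnajb1 gave -0.28 and was not called (adjusted p = 0.0825). All but 2 of the distal arrays were in 1 technical set over time and sham arrays were not, so time and set cannot be told apart in the sham part of this difference.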

How the results depend on the processing

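The late proximal rises of Hspb1 and Hspb8 stayed called under every alternative run but the dimmer Hspb8 probe set. Hspb1 ran from 0.36 to 0.67 (sham pooled) and Hspb8 from 0.29 to 0.42. Leaving out each array gave 0.33 to 0.44 for Hspb1 and 0.28 to 0.36 for Hspb8. With the array letter as a replicate block Hspb1 was 0.37 (adjusted p = 0.0131), and no count of members changed.

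Counts of members called moved, and the causes were not tested. Array weights gave 4 in proximal against sham late (otherwise 2), 1 early (otherwise 0), 5 in distal against sham late (otherwise 3), 6 in distal against proximal late and 5 early (otherwise 4 each), 6 each in proximal and in sham late against early (otherwise 4 each), 6 in distal late against early (otherwise 5), and in the time change against sham 4 for proximal (otherwise 0) and 6 for distal (otherwise 2). A random block for technical set gave 1 in proximal against sham early, 0 in distal against sham late and early (otherwise 3 and 6), 0 in distal against proximal late and early, 2 in proximal late against early, 0 in sham late against early and 0 in the distal time change against sham. Another quantile normalization gave 2 in sham late against early, 4 in distal against sham late and 5 in distal against proximal late and early. Pooled sham arrays gave 3 in proximal against sham late. Without the arrays whose letter is followed by o, distal late against early had 3 (otherwise 5) and distal against proximal late 3. Fitting only the arrays compared gave 4 in the distal time change against sham. Without the 18 h arrays distal against sham late had 1, distal against proximal late 2, distal late against early 4, and proximal and sham late against early 3 each. Leaving out each array gave 2 to 4 in distal against proximal late (2 without proximal 18 h b), 4 to 5 early, 3 to 5 in distal late against early (3 without 3 h c or 24 h a), and moved other counts by at most 1. Neither filter changed a count.

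Over all genes, proximal against sham late called 1192 (4103 with array weights, 2336 with the fixed and 2277 with the random set block, 1809 after another normalization, 1847 with sham pooled). At 1 to 8 h it called 16 (44 with the stricter filter, 165 after another normalization, 1425 with array weights, 588 and 549 with the fixed and random set block, 107 with the replicate block, 62 with only the arrays compared). At 12 to 16 h it called 14 (9 with the stricter filter, 108 after another normalization, 0 with array weights or only the arrays compared, 135 and 109 with the fixed and random set block, 39 with the replicate block). Distal late against early called 3103 (6402 with array weights). Proximal late against early called 4126 and sham 4947 (8041 and 8795 with array weights, 1059 and 342 with the random set block). The proximal time change against sham called 1064 (1819 after another normalization, 4018 with array weights, 2544 and 2459 with the fixed and random set block) and the distal one 3677 (7321 with array weights, 1236 with the random set block). With the random set block distal against sham called 88 late and 0 early (otherwise 7590 and 8436), and distal against proximal 2 and 47 (otherwise 6553 and 7989).

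Of the 84 member results 31 had the opposite sign under at least 1 alternative, in 75 values, of which 66 were called under neither setting. The other 9 follow. After another normalization Hspb8 in distal against sham early was -0.0684. With the random block Hsph1 there was -0.0299, and in distal against proximal early Hspb1 was -0.0638, Hsph1 -0.0638 and Dnajb1 -0.0845. With its dimmer probe set Dnajb1 was -0.0885 in distal against sham late, -0.29 in distal against proximal late and -0.24 in distal late against early, and Hspb8 was -0.22 in the last. The fixed block could not be estimated for distal against sham or proximal, proximal or sham over time, or the distal time change. Without the only sham array of 16 h, 12 to 16 h has no value. The 2 distal arrays outside set A, left out after the data were seen, changed no count.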
